A study of Mus musculus with 12 samples.

Results

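The genes of glycolysis and of the pentose phosphate pathway were followed through 4 dendritic cell (DC) populations sorted from inflamed mouse lung. The set held 37 genes chosen by symbol: carriers of glucose and lactate, the enzymes of both pathways, regulators of phosphofructokinase and of pyruvate oxidation, and the hypoxia factor gene Hif1a with 2 of its targets. A gene entered through probe sets annotated to that symbol alone, and the one with the highest mean signal over 12 arrays stood for it. Of the 37 genes, 34 had such a probe set. A filter on dim signal (above the median of the array in at least 3 of 12 arrays) left 31, among 10929 genes tested and 18194 genes with such a probe set in all. With 3 arrays each, they were the conventional DC that carry CD103 (CD103+ cDC) and 3 populations with high CD11b. Of these the Ly6Chi moDC and the CD14hi moDC count as monocyte-derived, and those low in CD14 as conventional (CD14lo cDC). All came from male C57BL/6J mice of 8 to 12 weeks, killed 16 h after an airway dose of 100 ng lipopolysaccharide (LPS), a bacterial wall component, with 100 ug ovalbumin, a foreign protein, in 50 ul saline. All mice had thus received the same dose, and no untreated cells were analysed here. The labels do not say when or how far the cells of each population met it. Each replicate pooled 20 mice, the sort purity was given as over 93%, and 50 ng of RNA was amplified before labelling. The labels do not say if equal replicate numbers mark the same animals.

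Glycolysis breaks glucose down to pyruvate in the cytosol and yields ATP without oxygen. Lactate dehydrogenase then turns pyruvate into lactate, which is exported. The pentose phosphate pathway branches off at glucose 6-phosphate and supplies NADPH and ribose phosphate. DC and macrophages exposed to LPS are known to raise glucose uptake and lactate release, and the transcription factor HIF-1 drives many glycolytic genes. Several steps are catalysed by alternative enzymes from separate genes, and these isoenzymes differ in tissue distribution and regulation.

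Signals were MAS5 intensities on a linear scale in arbitrary units, and the number of arrays limits their precision. Differences are given on the log2(signal + 50.0) scale with the standard error (SE) of the limma fit, so folds of dim genes are understated. Calls required an adjusted p (Benjamini-Hochberg, over all genes tested) below 0.05, and p-values measure the spread between pools of mice. In sorted bulk samples, fewer cells that express a gene and less RNA per cell cannot be told apart. Array medians ran from 72.4 to 109, and arrays of 1 population correlated at 0.973 to 0.983 across genes. Of the sort markers, Itgae and Cd14 are given here and followed the labels. Itgae, which encodes CD103, averaged 15178 in CD103+ cDC against 86.5 to 855 elsewhere. Cd14 averaged 10836 in Ly6Chi moDC and 11669 in CD14hi moDC, against 968 in CD103+ cDC and 1537 in CD14lo cDC. Cd14 was thus high in both moDC populations, and these values do not bear on the label Ly6Chi. As a sign of RNA quality, the Gapdh controls gave a 3' to 5' signal ratio of 3.26 and 3.27 in CD103+ cDC replicates 1 and 3. On the other arrays it ran from 1.48 to 2.29. Counts of calls in the comparisons that hold CD103+ cDC are therefore also given without these arrays, beside the share of all genes called in that fit, an alternative chosen after the values were seen. It leaves a lone CD103+ cDC array, assumed to vary like the other populations. The beta-actin controls showed much less of a gap on CD103+ cDC replicates 1 and 3. Their 3' signals there were 32454 and 32447, and their 5' signals 28984.5 and 31429. The Gapdh and beta-actin controls thus differed on these arrays, and RNA integrity itself was not tested.

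Markers of other cells were not spread evenly. Of 10 neutrophil markers 8 had a probe set and 5 passed the filter, and their summed signal was 4133 to 4441 in Ly6Chi moDC, against 289 to 1940 in CD103+ cDC, 1210 to 2221 in CD14hi moDC and 988 to 1372 in CD14lo cDC. Csf3r, S100a9 and S100a8 made up most of the sum in Ly6Chi moDC, with means of 1533, 1214 and 1257 there, against 34.1, 557 and 355 in CD103+ cDC, 591, 473 and 401 in CD14hi moDC, and 364, 344 and 259 in CD14lo cDC. The granule genes Ngp and Ltf and the receptor gene Cxcr2 stayed dim in Ly6Chi moDC, at means of 5.30, 46.5 and 45.3. All 8 lung epithelium markers had a probe set, 6 passed the filter, and they summed to 7007 to 11684 in CD103+ cDC against at most 5011 elsewhere. The club cell gene Scgb1a1 made up the largest part of that sum, with means of 4857 in CD103+ cDC, 1964 in Ly6Chi moDC, 2359 in CD14hi moDC and 2659 in CD14lo cDC. The surfactant gene Sftpc averaged 928 in CD103+ cDC, 195 in Ly6Chi moDC, 355 in CD14hi moDC and 151 in CD14lo cDC. Epcam averaged 2526 in CD103+ cDC, where it is also a DC gene, while the keratin genes Krt8 and Krt18 averaged 38.5 and 99.2. Alveolar macrophage markers (6 of 7 with a probe set, all 6 passing) summed to 6532 to 8495 in Ly6Chi moDC, of which Chil3 averaged 6685. Their sum was 1344 to 4926 in CD103+ cDC, 2370 to 4816 in CD14hi moDC and 1534 to 8097 in CD14lo cDC. Yet the median log2 difference of these 6 markers was -0.65 for Ly6Chi moDC minus CD14lo cDC and -0.45 for Ly6Chi moDC minus CD14hi moDC. It was 0.55 for CD103+ cDC minus Ly6Chi moDC. By this median the markers were not higher in Ly6Chi moDC. Fibroblast and endothelium markers (all 8 passing) summed to 3782 to 5070 in Ly6Chi moDC and 4976 to 5714 in CD14hi moDC, against 1813 to 2422 in CD103+ cDC and 2092 to 2885 in CD14lo cDC. NK cell markers (2 of 7 passing) summed to 7071 to 8251 in CD14lo cDC against at most 3760 elsewhere. Against CD14lo cDC, 2 of them were called lower in CD103+ cDC (15.3% of all genes). Only 1 was called lower in CD14hi moDC (6.95%) and 1 in Ly6Chi moDC (14%). The part of these cells in the differences below was not tested.

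Ly6Chi moDC had the highest mean for 22 of the 31 tested members, against 29.1% of all genes tested, and CD103+ cDC had the lowest for 16, against 36.7% of all genes. Both held for 15 members, while for 4 members the highest mean was in CD103+ cDC and the lowest in Ly6Chi moDC. The shares of all genes with these pairings were not counted. CD103+ cDC had the highest mean for 4 members in all (33.4% of all genes), CD14lo cDC for 4 (17.8%) and CD14hi moDC for 1 (19.7%). The median span between the highest and the lowest population was 0.96 on the log2 scale for members and 0.62 for all genes tested.

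**Figure D1:**
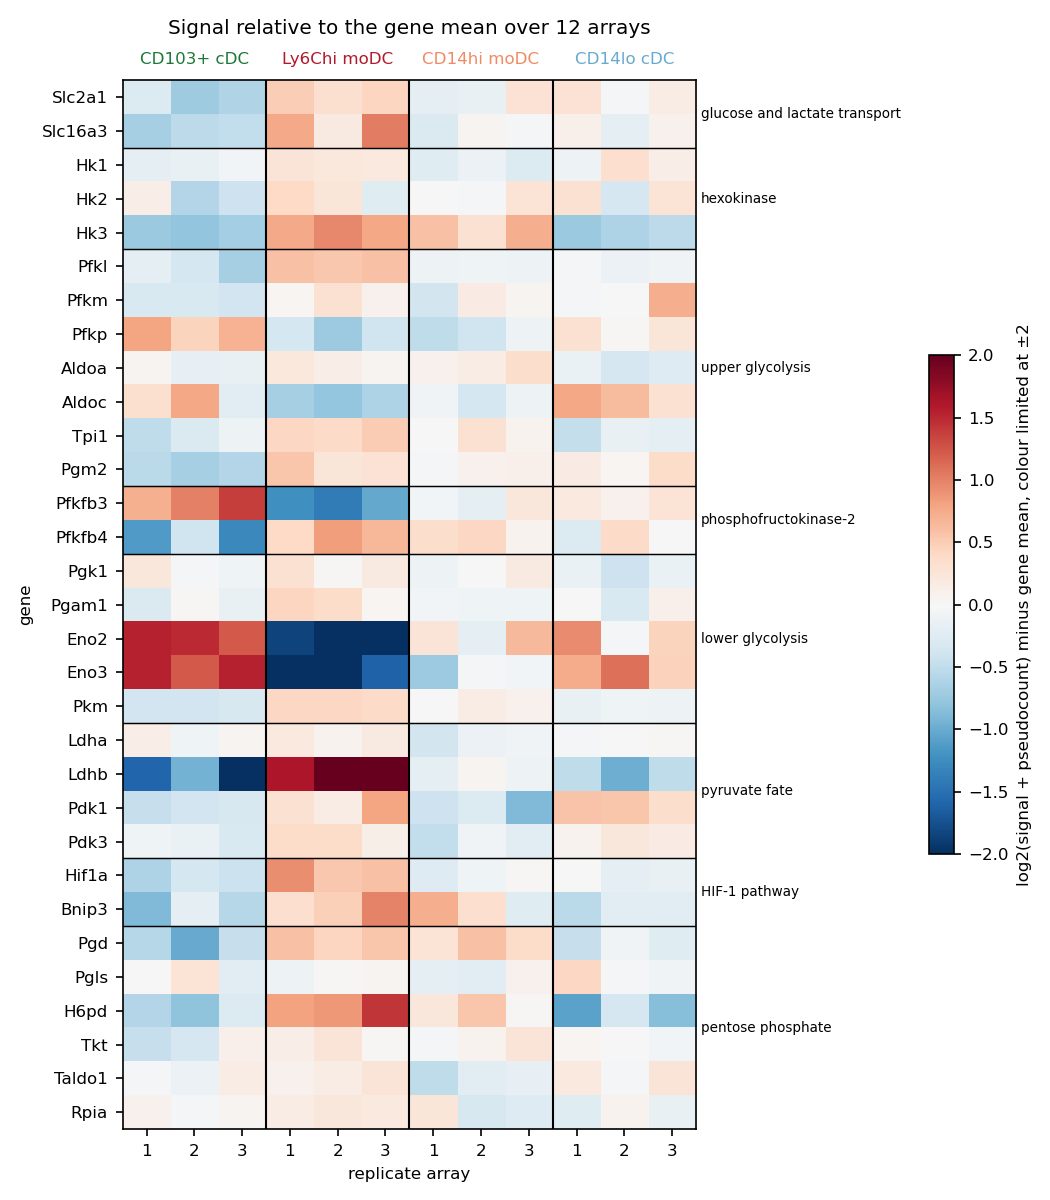
Signals of the 31 tested genes on the 12 arrays, as log2(signal + pseudocount) minus the mean of the gene over all arrays, with rows grouped by role and columns by population and replicate. The Ly6Chi moDC columns are mostly above the gene mean, while Pfkfb3, Eno2 and Eno3 are above it in CD103+ cDC and far below it in Ly6Chi moDC.

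The widest contrast was CD103+ cDC against Ly6Chi moDC. Here 5 of the 31 members were higher in CD103+ cDC, where 23.2% of all genes were, and 17 were lower, where 24.3% of all genes were. The median log2 difference was -0.46 over the members and -0.02 over all genes tested. With quantile scaling the counts were 5 (22% of all genes) and 20 (25%). Without CD103+ cDC replicates 1 and 3 they were 5 (16.9% of all genes in that fit) and 13 (16.6%).

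The conventional populations were next set against the monocyte-derived ones, as the mean of CD103+ cDC and CD14lo cDC minus the mean of CD14hi moDC and Ly6Chi moDC. In the cDC, 5 members were higher (20.8% of all genes) and 14 lower (20.7% of all genes), with a median log2 difference of -0.21 against 0.00 over all genes. Such a mean can be called when a single population differs. Only 2 members, Pfkp and Eno3, were higher in all 6 cDC arrays than in all 6 moDC arrays (4.97% of all genes), and 6 were lower in all of them (6.71% of all genes): Hk3, Tpi1, Pkm, Ldhb, Pgd and H6pd. All 19 calls held without each single array. Without both CD103+ cDC replicates 1 and 3 the counts were 5 (16.9% of all genes in that fit) and 15 (16.8%).

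Against CD14hi moDC, CD103+ cDC had 4 members higher (16.9% of all genes) and 10 lower (20.3% of all genes). With quantile scaling the counts were 5 (18.4% of all genes) and 12 (19.5%), and without CD103+ cDC replicates 1 and 3 they were 5 (9.91% of all genes in that fit) and 6 (12.4%). Against CD14lo cDC, CD103+ cDC had 4 members higher (13.4% of all genes) and 7 lower (15.3% of all genes). That split was 4 (13.1% of all genes) and 8 (14.6%) with quantile scaling, and 4 (16.8%) and 4 (12.3%) with each array centred at its median. The higher count was 2 without CD103+ cDC replicate 1 or 3 or CD14lo cDC replicate 3. Those fits called 1238, 1209 and 1149 of all 10929 genes higher, against 1466 in the main fit. The lower count was 4 without CD14lo cDC replicate 3, where 1364 of all genes were lower, against 1675. Without both CD103+ cDC replicates 1 and 3 the counts were 1 (7.08% of all genes in that fit) and 3 (8.77%).

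Ly6Chi moDC also stood apart from the other CD11bhi populations. Against CD14lo cDC it had 12 members higher (11.2% of all genes) and 5 lower (14% of all genes). Against CD14hi moDC it had 10 higher (6.82% of all genes) and 3 lower (11.4% of all genes). The 10 fell to 4 without CD14hi moDC replicate 1 (547 of all 10929 genes, against 745 in the main fit). They fell to 6 without Ly6Chi moDC replicate 2 or 3 (584 and 490 of all genes), while the 3 held without each single array. CD14hi moDC and CD14lo cDC differed in 9 members, with 4 higher in CD14hi moDC (9.24% of all genes) and 5 lower (6.95% of all genes). The 5 became 2 without CD14lo cDC replicate 1 (645 of all genes) or CD14hi moDC replicate 1 or 2 (504 and 542). They became 3 without CD14lo cDC replicate 3 (547 of all genes), against 760 of all genes lower in the main fit. These comparisons share arrays and are not independent of each other.

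**Figure D2:**
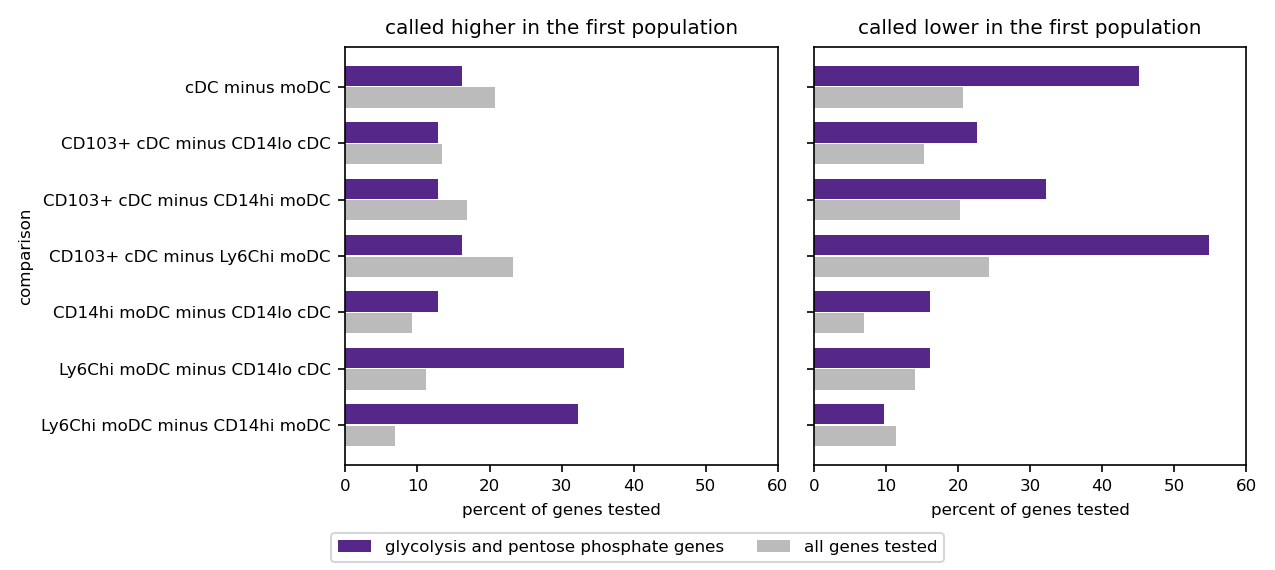
Percent of genes called higher (left) or lower (right) in the first-named population of each comparison, for the 31 glycolysis and pentose phosphate genes and for all 10929 genes tested. In percentage points, members exceed the background most in the lower direction for CD103+ cDC minus Ly6Chi moDC (17 of 31 against 24.3%) and in the higher direction for Ly6Chi moDC minus CD14lo cDC (12 of 31 against 11.2%).

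Glucose enters immune cells mainly through the carrier encoded by Slc2a1 (GLUT1). Its signals were 4984, 3699 and 3974 in CD103+ cDC, 8503, 7597 and 8141 in Ly6Chi moDC, 5309, 5442 and 7451 in CD14hi moDC, and 7442, 5888 and 6740 in CD14lo cDC. CD103+ cDC lay below every array of the other populations, and Ly6Chi moDC above every one. Slc2a1 was lower in CD103+ cDC than in Ly6Chi moDC by a log2 difference of -0.94 ± 0.15 (SE; 1.92-fold, adjusted p = 4.1e-05), than in CD14lo cDC by -0.66 ± 0.15 (1.58-fold, adjusted p = 0.0024) and than in CD14hi moDC by -0.51 ± 0.15 (1.43-fold, adjusted p = 0.011). That last call was lost without CD14hi moDC replicate 3 (adjusted p = 0.074) and with median centring (adjusted p = 0.050). Between Ly6Chi moDC and CD14hi moDC the log2 difference of 0.43 ± 0.15 was not called on the deposited scale (adjusted p = 0.056) but was with quantile scaling (adjusted p = 0.024).

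A second glucose carrier outside the member list, Slc2a3 (GLUT3), had another order. It read 44.6, 238 and 195 in CD103+ cDC, 515, 423 and 795 in Ly6Chi moDC, 828, 677 and 814 in CD14hi moDC, and 1508, 1607 and 1364 in CD14lo cDC. CD14lo cDC was thus highest on every array and CD103+ cDC lowest. Slc2a3 was 8.17-fold lower in CD103+ cDC than in CD14lo cDC (log2 difference -3.03 ± 0.31, adjusted p = 4.8e-07) and 2.53-fold lower in Ly6Chi moDC than in CD14lo cDC (-1.34 ± 0.31, adjusted p = 0.0029).

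Hexokinases trap glucose as glucose 6-phosphate, and of the 3 tested genes Hk3, the isoform known from myeloid cells, divided the lineages. Hk3 signals were 311, 303 and 330 in CD103+ cDC, 973, 1139 and 984 in Ly6Chi moDC, 862, 698 and 956 in CD14hi moDC, and 312, 346 and 373 in CD14lo cDC. All 6 moDC arrays lay above all 6 cDC arrays. In the cDC Hk3 was lower by a log2 difference of -1.37 ± 0.12 (2.58-fold, adjusted p = 1.8e-08). It was 2.75-fold higher in Ly6Chi moDC and 2.24-fold higher in CD14hi moDC than in CD14lo cDC (adjusted p = 1.7e-06 and 4.7e-05). Within each lineage it was not called: Ly6Chi moDC minus CD14hi moDC was 0.29 ± 0.16 (adjusted p = 0.25) and CD103+ cDC minus CD14lo cDC was -0.11 ± 0.16 (adjusted p = 0.67).

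The other hexokinase genes did not pass the test in any comparison on the deposited scale. Hk1, the housekeeping isoform, ranged over 649 to 715 in CD103+ cDC, 859 to 906 in Ly6Chi moDC, 608 to 683 in CD14hi moDC and 694 to 955 in CD14lo cDC. Its difference between Ly6Chi moDC and CD14hi moDC (0.44 ± 0.15, adjusted p = 0.056) was called only with quantile scaling (adjusted p = 0.043) and with median centring (adjusted p = 0.041). Hk2, an inducible isoform, ranged from 1383 to 2779 over the 12 arrays, and its ranges overlapped between all pairs of populations.

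Phosphofructokinase commits hexose to glycolysis, and its 3 subunit genes had 3 patterns. Pfkl, the liver type, read 801, 717 and 566 in CD103+ cDC, 1410, 1377 and 1412 in Ly6Chi moDC, 860, 875 and 857 in CD14hi moDC, and 912, 854 and 878 in CD14lo cDC. Ly6Chi moDC stood above every other array and CD103+ cDC below every other, while CD14hi moDC and CD14lo cDC overlapped. The log2 difference of CD103+ cDC minus Ly6Chi moDC was -0.97 ± 0.15 (1.96-fold, adjusted p = 2.5e-05). Ly6Chi moDC was also higher than CD14hi moDC (0.67 ± 0.15, adjusted p = 0.0035) and CD14lo cDC (0.64 ± 0.15, adjusted p = 0.0033), and these calls held without each single array.

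Pfkp, the platelet type, ran the other way. Its signals were 6208, 4881 and 5795 in CD103+ cDC, 2774, 2120 and 2674 in Ly6Chi moDC, 2481, 2692 and 3316 in CD14hi moDC, and 4387, 3621 and 4194 in CD14lo cDC. Both cDC populations lay above both moDC populations on every array. Pfkp was higher in the cDC by 0.83 ± 0.11 (1.78-fold, adjusted p = 3.6e-06), and higher in CD103+ cDC than in Ly6Chi moDC by 1.14 ± 0.15 (2.21-fold, adjusted p = 4.1e-06). Its smaller difference between CD103+ cDC and CD14lo cDC (0.46 ± 0.15, adjusted p = 0.027) was lost without CD103+ cDC replicate 1 or 3 or CD14lo cDC replicate 2 or 3 (adjusted p 0.054 to 0.10). Pfkm, the muscle type, was dim, at 83.9 to 91.2 in CD103+ cDC and 84.5 to 239 elsewhere, and was called only with quantile scaling, as lower in CD103+ cDC than in Ly6Chi moDC (-0.59, adjusted p = 0.047).

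Fructose 2,6-bisphosphate is the strongest activator of phosphofructokinase, and bifunctional enzymes make and remove it. Pfkfb3 encodes the form with the highest kinase activity, and Pfkfb4 another inducible form. Pfkfb3 signals were 4030, 4986 and 6473 in CD103+ cDC, 1020, 897 and 1172 in Ly6Chi moDC, 2345, 2137 and 2875 in CD14hi moDC, and 2813, 2611 and 2955 in CD14lo cDC. CD103+ cDC was highest and Ly6Chi moDC lowest on every array, with the other populations overlapping between them. Pfkfb3 was higher in CD103+ cDC than in Ly6Chi moDC by 2.25 ± 0.17 (4.76-fold, adjusted p = 2.4e-09), than in CD14hi moDC by 1.04 ± 0.17 (2.06-fold, adjusted p = 7.4e-05) and than in CD14lo cDC by 0.85 ± 0.17 (1.80-fold, adjusted p = 0.00081).

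Pfkfb4 read 290, 516 and 256 in CD103+ cDC, 940, 1288 and 1142 in Ly6Chi moDC, 907, 951 and 736 in CD14hi moDC, and 567, 924 and 695 in CD14lo cDC. Here CD103+ cDC was lowest on every array. Against Ly6Chi moDC the difference was -1.58 ± 0.22 (2.99-fold lower, adjusted p = 1.1e-05), CD103+ cDC minus CD14hi moDC -1.23 ± 0.22 (adjusted p = 0.00027) and CD103+ cDC minus CD14lo cDC -0.97 ± 0.22 (adjusted p = 0.0029). Without CD103+ cDC replicates 1 and 3, which held the lowest values, the difference from CD14hi moDC was -0.69 (adjusted p = 0.076) and from CD14lo cDC -0.44 (adjusted p = 0.32).

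**Figure D3:**
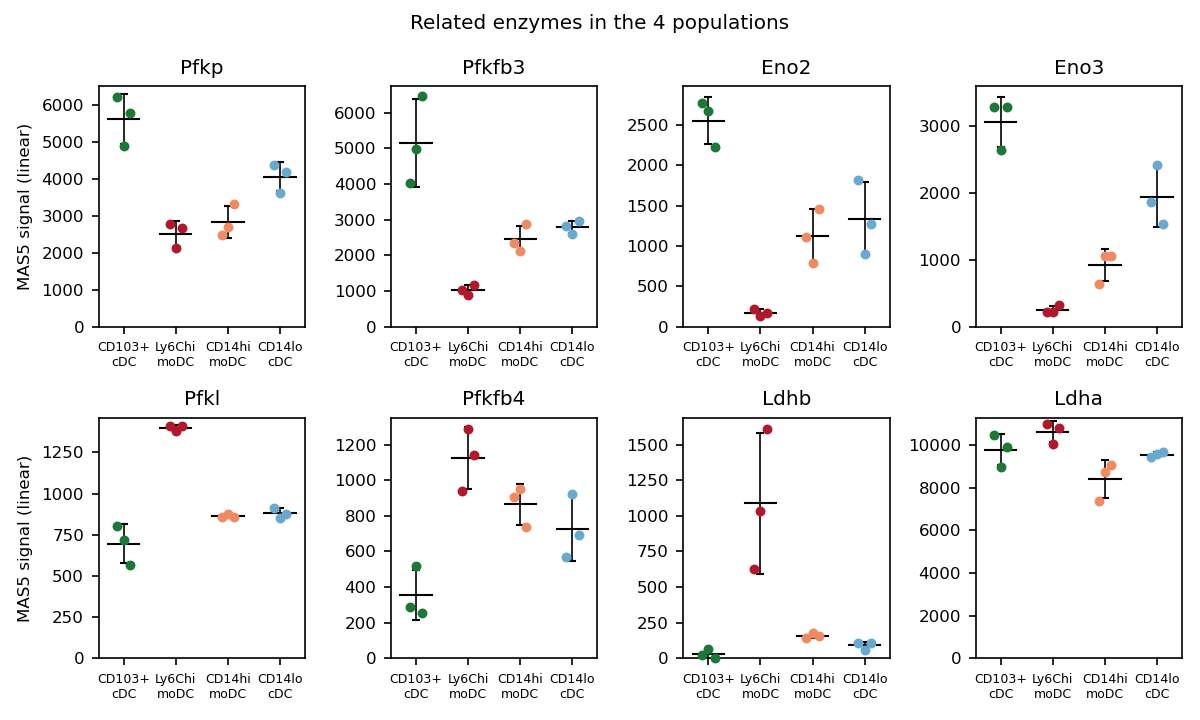
MAS5 signal (linear scale, from 0) of 8 genes in CD103+ cDC, Ly6Chi moDC, CD14hi moDC and CD14lo cDC, where points are arrays, horizontal bars the mean and whiskers the SD of 3 arrays. Pfkp, Pfkfb3, Eno2 and Eno3 are highest in CD103+ cDC, Pfkl and Ldhb are highest in Ly6Chi moDC, Pfkfb4 is lowest in CD103+ cDC, and Ldha overlaps between CD103+ cDC and Ly6Chi moDC.

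Aldolase splits fructose 1,6-bisphosphate. Aldoa, the widely expressed form, was bright on all arrays, with 10936, 9440 and 9463 in CD103+ cDC, 12254, 11497 and 10907 in Ly6Chi moDC, 11194, 11704 and 13443 in CD14hi moDC, and 9652, 8369 and 8766 in CD14lo cDC. CD14lo cDC lay below both moDC populations. Aldoa was higher in CD14hi moDC than in CD14lo cDC by 0.44 ± 0.12 (adjusted p = 0.013) and in Ly6Chi moDC than in CD14lo cDC by 0.37 ± 0.12 (adjusted p = 0.024). The first call was lost without CD14lo cDC replicate 2 or 3 or CD14hi moDC replicate 3 (adjusted p 0.054 to 0.065), and the second without CD14lo cDC replicate 2 or 3 or Ly6Chi moDC replicate 1 or 2 (adjusted p 0.056 to 0.10). With quantile scaling Aldoa was also lower in CD103+ cDC than in Ly6Chi moDC (-0.42, adjusted p = 0.00049).

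Aldoc, the form best known from brain, favoured the cDC. It read 348, 495 and 223 in CD103+ cDC, 150, 137 and 159 in Ly6Chi moDC, 253, 201 and 247 in CD14hi moDC, and 495, 447 and 343 in CD14lo cDC. Ly6Chi moDC was lowest on every array. Aldoc was higher in CD103+ cDC than in Ly6Chi moDC by 0.97 ± 0.23 (1.96-fold, adjusted p = 0.0017), and 2.39-fold lower in Ly6Chi moDC than in CD14lo cDC (-1.26 ± 0.23, adjusted p = 0.00037). Its lower level in CD14hi moDC than in CD14lo cDC (-0.75 ± 0.23, adjusted p = 0.031) held only without CD14lo cDC replicate 3, and without any other single array of the pair its adjusted p was 0.053 to 0.12.

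Tpi1, which interconverts the triose phosphates, read 2618, 3033 and 3462 in CD103+ cDC, 5012, 4898 and 5356 in Ly6Chi moDC, 3730, 4632 and 3913 in CD14hi moDC, and 2667, 3380 and 3306 in CD14lo cDC. Its moDC arrays all lay above its cDC arrays. It was lower in the cDC by -0.57 ± 0.10 (1.48-fold, adjusted p = 0.00014) and lower in CD103+ cDC than in Ly6Chi moDC by -0.74 ± 0.14 (1.67-fold, adjusted p = 0.00024). Its difference from CD14hi moDC (-0.43 ± 0.14, adjusted p = 0.022) was lost without CD103+ cDC replicate 1 or CD14hi moDC replicate 2 (adjusted p = 0.10 and 0.12).

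Gapdh was measured only by control probe sets and was not tested. The 3' set read 23776, 16540 and 25243 in CD103+ cDC, 16796, 18204 and 16117 in Ly6Chi moDC, 15024, 19610 and 23757 in CD14hi moDC, and 16375, 15400 and 15019 in CD14lo cDC. The highest values lay on CD103+ cDC replicates 1 and 3, the arrays with the high 3' to 5' ratio. Gpi1, Eno1 and G6pdx had no probe set with a single symbol in the annotation used here. Egln3 (13.8 to 77.1) and Fbp1 (0.567 to 9.12) were too dim to pass the filter.

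In lower glycolysis the enolase genes Eno2 and Eno3 gave the largest differences of any tested member in favour of CD103+ cDC. Eno1, also an enolase gene, had no usable probe set, so these values do not cover the whole enolase step. Enolase makes phosphoenolpyruvate. Eno2 encodes the form typical of neurons and Eno3 that of muscle. Eno2 signals were 2773, 2669 and 2224 in CD103+ cDC, 218, 131 and 176 in Ly6Chi moDC, 1113, 795 and 1459 in CD14hi moDC, and 1814, 905 and 1274 in CD14lo cDC. CD103+ cDC was highest and Ly6Chi moDC lowest on every array.

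The log2 difference of Eno2 was 3.54 ± 0.24 in CD103+ cDC minus Ly6Chi moDC (11.7-fold, adjusted p = 5.3e-10), 1.19 ± 0.24 in CD103+ cDC minus CD14hi moDC (2.28-fold, adjusted p = 0.00061) and 0.96 ± 0.24 in CD103+ cDC minus CD14lo cDC (1.95-fold, adjusted p = 0.0048). Ly6Chi moDC was 5.13-fold below CD14hi moDC (-2.36 ± 0.24, adjusted p = 7.3e-07) and 5.98-fold below CD14lo cDC (-2.58 ± 0.24, adjusted p = 1.4e-07). CD14hi moDC minus CD14lo cDC was -0.22 ± 0.24 and was not called (adjusted p = 0.61). Without CD103+ cDC replicates 1 and 3 the call against CD14lo cDC was lost (1.03, adjusted p = 0.059).

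Eno3 read 3274, 2630 and 3269 in CD103+ cDC, 226, 214 and 321 in Ly6Chi moDC, 642, 1059 and 1055 in CD14hi moDC, and 1855, 2414 and 1527 in CD14lo cDC. The ranges did not overlap, with CD103+ cDC highest, then CD14lo cDC, then CD14hi moDC, and Ly6Chi moDC last. The difference of CD103+ cDC minus Ly6Chi moDC was 3.36 ± 0.21 (10.3-fold, adjusted p = 1.9e-10), CD103+ cDC minus CD14hi moDC 1.71 ± 0.21 (3.27-fold, adjusted p = 3.1e-06), and CD14hi moDC minus CD14lo cDC -1.04 ± 0.21 (2.06-fold lower, adjusted p = 0.0015). CD103+ cDC minus CD14lo cDC was smaller (0.67 ± 0.21, 1.59-fold, adjusted p = 0.022) and was lost without CD103+ cDC replicate 1 or 3 or CD14lo cDC replicate 1 or 3 (adjusted p 0.059 to 0.12).

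The remaining enzymes of lower glycolysis moved less. Pgk1, the first ATP-yielding step, ranged from 4071 to 6738. It was called only as higher in Ly6Chi moDC than in CD14lo cDC (0.39 ± 0.13, adjusted p = 0.039), a call lost without every array of that pair except Ly6Chi moDC replicate 2 (adjusted p 0.052 to 0.17). Pgam1, the mutase before enolase, ranged from 4685 to 7824 and was called only as lower in CD103+ cDC than in Ly6Chi moDC (-0.42 ± 0.14, adjusted p = 0.018), lost without CD103+ cDC replicate 1 or Ly6Chi moDC replicate 1 or 2 (adjusted p 0.067 to 0.089).

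Pyruvate kinase makes pyruvate and ATP. Of its genes Pklr, outside the member list, was called higher in the cDC than in the moDC. That call was lost without 4 of 12 arrays left out in turn. The other gene, Pkm, is a member. It read 6433, 6491 and 6718 in CD103+ cDC, 11248, 11287 and 11071 in Ly6Chi moDC, 8368, 9374 and 8920 in CD14hi moDC, and 7612, 7941 and 7847 in CD14lo cDC, so the ranges of the 4 populations did not overlap. CD103+ cDC was below Ly6Chi moDC by -0.77 ± 0.10 (1.71-fold, adjusted p = 5.5e-06) and below CD14hi moDC by -0.44 ± 0.10 (1.35-fold, adjusted p = 0.0025). Ly6Chi moDC was above CD14lo cDC by 0.52 ± 0.10 (1.43-fold, adjusted p = 0.00086). Its difference from CD14hi moDC (0.33 ± 0.10, adjusted p = 0.030) was lost without any 1 array of the pair (adjusted p 0.052 to 0.096), and CD103+ cDC minus CD14lo cDC (-0.25 ± 0.10, adjusted p = 0.079) was called only with quantile scaling (-0.41, adjusted p = 0.0019).

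At the fate of pyruvate, Ldhb gave the largest difference of all members in favour of Ly6Chi moDC. Lactate dehydrogenase is a tetramer of A and B chains, and the B chain, typical of heart, favours the oxidation of lactate. Ldhb signals were 23.2, 64.0 and 1.05 in CD103+ cDC, 624, 1031 and 1609 in Ly6Chi moDC, 143, 179 and 155 in CD14hi moDC, and 105, 61.1 and 105 in CD14lo cDC. Ly6Chi moDC stood far above every other array, and the CD103+ cDC values were under the medians of their arrays. Ldhb in CD103+ cDC minus Ly6Chi moDC was -3.82 ± 0.31 (14.2-fold lower, adjusted p = 6.4e-09). This size depends on the pseudocount, and was -5.09 with a pseudocount of 2% and -3.14 with 20% of the trimmed mean, and -2.84 when the probe sets of the gene were averaged.

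Ldhb was also 5.11-fold higher in Ly6Chi moDC than in CD14hi moDC (2.35 ± 0.31, adjusted p = 1.9e-05) and 7.68-fold higher than in CD14lo cDC (2.94 ± 0.31, adjusted p = 7.1e-07). CD103+ cDC was lower than CD14hi moDC (-1.47 ± 0.31, adjusted p = 0.00091), a call lost without both CD103+ cDC replicates 1 and 3 (adjusted p = 0.13). Its difference from CD14lo cDC (-0.88 ± 0.31, adjusted p = 0.038) was lost without CD103+ cDC replicate 1 or 3 or CD14lo cDC replicate 1 or 3 (adjusted p 0.086 to 0.19). The other 3 probe sets of Ldhb gave -3.39, -2.38 and -1.76 for CD103+ cDC minus Ly6Chi moDC, all called.

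Ldha, the A chain, which favours lactate formation, was bright and nearly level. It read 10462, 8986 and 9904 in CD103+ cDC, 10978, 10053 and 10801 in Ly6Chi moDC, 7392, 8750 and 9054 in CD14hi moDC, and 9416, 9582 and 9659 in CD14lo cDC. For Ldha, CD103+ cDC minus Ly6Chi moDC was -0.12 ± 0.11 and was not called (adjusted p = 0.42), though it was with quantile scaling (-0.31, adjusted p = 0.013). The single call on the deposited scale, Ly6Chi moDC above CD14hi moDC (0.34 ± 0.11, adjusted p = 0.044), was lost without CD14hi moDC replicate 1 or 2 or any Ly6Chi moDC replicate (adjusted p 0.058 to 0.17) and with median centring (adjusted p = 0.054).

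The lactate exporter of glycolytic cells, MCT4, is encoded by Slc16a3. Its signals were 532, 592 and 610 in CD103+ cDC, 1516, 995 and 1820 in Ly6Chi moDC, 704, 906 and 846 in CD14hi moDC, and 939, 764 and 931 in CD14lo cDC. Ly6Chi moDC was highest and CD103+ cDC lowest on every array. CD103+ cDC minus Ly6Chi moDC was -1.21 ± 0.19 (2.32-fold lower, adjusted p = 3.8e-05). Ly6Chi moDC was above CD14hi moDC by 0.75 ± 0.19 (adjusted p = 0.0093, lost without CD14hi moDC replicate 1 or Ly6Chi moDC replicate 3, adjusted p = 0.052 and 0.071) and above CD14lo cDC by 0.65 ± 0.19 (adjusted p = 0.017, lost without CD14lo cDC replicate 2 or Ly6Chi moDC replicate 1 or 3, adjusted p 0.067 to 0.11). CD103+ cDC was below CD14lo cDC by -0.56 ± 0.19 (adjusted p = 0.035), not called with quantile scaling (adjusted p = 0.064) or without 5 of the 6 arrays of the pair in turn (all but CD14lo cDC replicate 2, adjusted p 0.056 to 0.11).

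The related monocarboxylate carrier MCT1, encoded by Slc16a1 outside the member list, was 121, 122 and 103 in CD103+ cDC, 789, 652 and 817 in Ly6Chi moDC, 614, 462 and 537 in CD14hi moDC, and 359, 318 and 372 in CD14lo cDC. The 4 ranges did not overlap. Its log2 difference of CD103+ cDC minus Ly6Chi moDC was -2.28 ± 0.17 (4.84-fold lower, adjusted p = 3.2e-09), and Ly6Chi moDC was 2.00-fold above CD14lo cDC (adjusted p = 0.00024).

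Pyruvate dehydrogenase kinases hold pyruvate back from the mitochondria, and their genes followed neither lineage nor the common order. Pdk1 read 170, 181 and 193 in CD103+ cDC, 321, 286 and 473 in Ly6Chi moDC, 177, 200 and 115 in CD14hi moDC, and 397, 394 and 335 in CD14lo cDC. CD103+ cDC and CD14hi moDC overlapped at a low level, and Ly6Chi moDC and CD14lo cDC overlapped at a higher one. Pdk1 was lower in CD103+ cDC than in Ly6Chi moDC (-0.80 ± 0.21, 1.74-fold, adjusted p = 0.0043), higher in Ly6Chi moDC than in CD14hi moDC (0.94 ± 0.21, 1.91-fold, adjusted p = 0.0038) and lower in CD14hi moDC than in CD14lo cDC (-1.01 ± 0.21, 2.02-fold, adjusted p = 0.0022).

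Pdk1 was also lower in CD103+ cDC than in CD14lo cDC (-0.88 ± 0.21, adjusted p = 0.0041), a call lost when its probe sets were averaged (-0.44, adjusted p = 0.10). Without CD103+ cDC replicates 1 and 3 the differences kept their size but were not called against CD14lo cDC (-0.88, adjusted p = 0.069) or Ly6Chi moDC (-0.80, adjusted p = 0.058). Pdk3 ranged over 392 to 461 in CD103+ cDC, 538 to 653 in Ly6Chi moDC, 336 to 470 in CD14hi moDC and 520 to 588 in CD14lo cDC. Its calls, lower in CD103+ cDC than in Ly6Chi moDC (-0.46 ± 0.17, adjusted p = 0.033) and higher in Ly6Chi moDC than in CD14hi moDC (0.54 ± 0.17, adjusted p = 0.030), were each lost without Ly6Chi moDC replicate 1 or 2, the first also without CD103+ cDC replicate 3 and the second without CD14hi moDC replicate 1 or 3 (adjusted p 0.063 to 0.14).

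HIF-1 is a heterodimer whose alpha chain, encoded by Hif1a, is broken down when oxygen is present. Hif1a message was 1671, 2024 and 1912 in CD103+ cDC, 5006, 3804 and 3917 in Ly6Chi moDC, 2165, 2452 and 2645 in CD14hi moDC, and 2609, 2265 and 2331 in CD14lo cDC. Ly6Chi moDC was highest on every array and CD103+ cDC lowest, while CD14hi moDC and CD14lo cDC overlapped. CD103+ cDC minus Ly6Chi moDC was -1.15 ± 0.14 (2.23-fold lower, adjusted p = 1.9e-06), Ly6Chi moDC minus CD14hi moDC 0.79 ± 0.14 (1.73-fold, adjusted p = 0.00054) and Ly6Chi moDC minus CD14lo cDC 0.80 ± 0.14 (1.74-fold, adjusted p = 0.00030). These calls held without each single array. CD103+ cDC did not pass the test against CD14hi moDC (-0.36 ± 0.14, adjusted p = 0.052) or CD14lo cDC (-0.36 ± 0.14, adjusted p = 0.071).

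Bnip3, a HIF-1 target that acts in the removal of mitochondria, read 190, 334 and 247 in CD103+ cDC, 509, 563 and 832 in Ly6Chi moDC, 676, 506 and 321 in CD14hi moDC, and 254, 331 and 330 in CD14lo cDC. Ly6Chi moDC lay above both cDC populations, and CD14hi moDC overlapped with all. Bnip3 was lower in CD103+ cDC than in Ly6Chi moDC by -1.15 ± 0.25 (2.23-fold, adjusted p = 0.00082), a call lost without both CD103+ cDC replicates 1 and 3 (adjusted p = 0.082). Ly6Chi moDC minus CD14lo cDC was 0.93 ± 0.25 (1.90-fold, adjusted p = 0.0092) and was lost without Ly6Chi moDC replicate 3 (adjusted p = 0.063). CD103+ cDC minus CD14hi moDC was -0.82 ± 0.25 (adjusted p = 0.014) and was lost without CD103+ cDC replicate 1 or CD14hi moDC replicate 1 (adjusted p = 0.073 and 0.095).

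**Figure D4:**
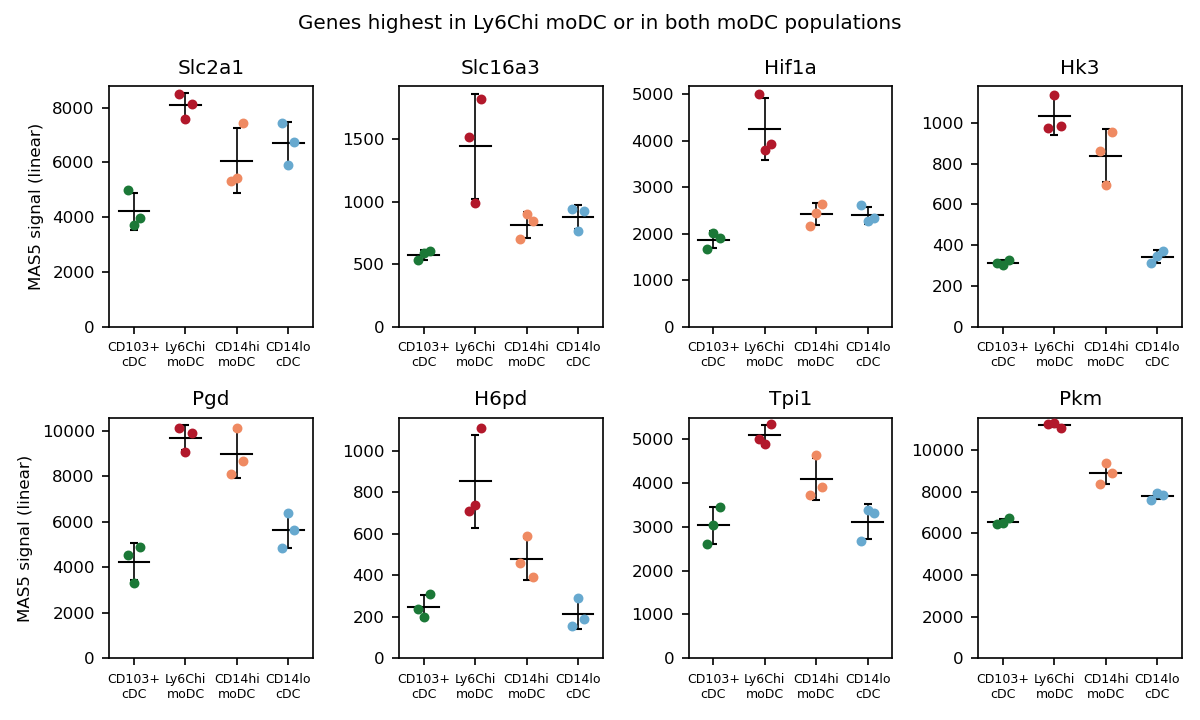
MAS5 signal (linear scale, from 0) of 8 genes in CD103+ cDC, Ly6Chi moDC, CD14hi moDC and CD14lo cDC, where points are arrays, horizontal bars the mean and whiskers the SD of 3 arrays. Hk3 and Pgd are high in both moDC populations, while Slc16a3, Hif1a and Pkm are highest in Ly6Chi moDC.

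The pentose phosphate genes are given from the oxidative to the non-oxidative steps, without G6pdx, which had no usable probe set. Pgd encodes 6-phosphogluconate dehydrogenase, which yields NADPH. Its signals were 4524, 3324 and 4879 in CD103+ cDC, 10099, 9056 and 9888 in Ly6Chi moDC, 8091, 10137 and 8682 in CD14hi moDC, and 4835, 6364 and 5652 in CD14lo cDC. All moDC arrays lay above all cDC arrays. Pgd was lower in the cDC by -0.94 ± 0.11 (1.91-fold, adjusted p = 7.9e-07), and lower in CD103+ cDC than in Ly6Chi moDC by -1.20 ± 0.15 (2.29-fold, adjusted p = 2.2e-06). Its difference between CD103+ cDC and CD14lo cDC (-0.41 ± 0.15, adjusted p = 0.046) was lost without CD103+ cDC replicate 1 or 2 or CD14lo cDC replicate 2 or 3 (adjusted p 0.051 to 0.21).

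H6pd encodes the hexose 6-phosphate dehydrogenase of the endoplasmic reticulum, which supplies NADPH there. It read 238, 197 and 310 in CD103+ cDC, 709, 738 and 1111 in Ly6Chi moDC, 459, 589 and 392 in CD14hi moDC, and 157, 293 and 190 in CD14lo cDC. Both moDC populations lay above both cDC populations, which overlapped with each other. H6pd was lower in the cDC by -1.31 ± 0.16 (2.47-fold, adjusted p = 3.2e-06). Ly6Chi moDC minus CD14lo cDC was 1.78 ± 0.23 (3.44-fold, adjusted p = 1.0e-05), CD103+ cDC minus Ly6Chi moDC was -1.59 ± 0.23 (3.00-fold lower, adjusted p = 1.6e-05) and CD14hi moDC minus CD14lo cDC was 1.03 ± 0.23 (2.04-fold, adjusted p = 0.0042). Its excess in Ly6Chi moDC over CD14hi moDC (0.76 ± 0.23, adjusted p = 0.028) was lost without CD14hi moDC replicate 1 or 3 or Ly6Chi moDC replicate 3 (adjusted p 0.078 to 0.16).

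Pgls, the lactonase between the oxidative steps, ranged from 1454 to 2301 and was not called in any comparison. Among the non-oxidative enzymes, transketolase (Tkt) gave signals of 8862, 9722 and 13211 in CD103+ cDC, 13409, 14632 and 12468 in Ly6Chi moDC, 11909, 12872 and 14688 in CD14hi moDC, and 12543, 12316 and 11859 in CD14lo cDC. CD103+ cDC replicate 3 overlapped with the other populations. CD103+ cDC minus Ly6Chi moDC was -0.37 ± 0.14 (adjusted p = 0.035), lost without CD103+ cDC replicate 1 or 2 or Ly6Chi moDC replicate 1 or 2 (adjusted p 0.077 to 0.18) and with median centring (adjusted p = 0.13). With quantile scaling Tkt was lower in CD103+ cDC than in each other population (-0.62, -0.44 and -0.51 against Ly6Chi moDC, CD14hi moDC and CD14lo cDC). A second probe set of Tkt gave -1.18 for CD103+ cDC minus Ly6Chi moDC (adjusted p = 4.8e-06).

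Taldo1, transaldolase, read 3103 to 3767 in CD103+ cDC, 3570 to 4063 in Ly6Chi moDC, 2361 to 2996 in CD14hi moDC and 3289 to 4035 in CD14lo cDC. CD14hi moDC lay below all other arrays. It was called below CD14lo cDC (-0.44 ± 0.14, adjusted p = 0.035), and Ly6Chi moDC was called above it (0.46 ± 0.14, adjusted p = 0.024). The first call was lost without CD14hi moDC replicate 1 or 2 or CD14lo cDC replicate 1 or 3, and the second without CD14hi moDC replicate 1 or Ly6Chi moDC replicate 2 or 3 (adjusted p 0.054 to 0.18). Rpia, the ribose phosphate isomerase, ranged from 915 to 1388 and was not called in any comparison.

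Pgm2, a phosphoglucomutase family gene that acts on ribose and glucose phosphates, was 441, 399 and 423 in CD103+ cDC, 992, 790 and 819 in Ly6Chi moDC, 640, 708 and 710 in CD14hi moDC, and 746, 680 and 872 in CD14lo cDC. CD103+ cDC was lowest on every array. CD103+ cDC minus Ly6Chi moDC was -0.96 ± 0.16 (1.94-fold lower, adjusted p = 5.9e-05), minus CD14lo cDC -0.79 ± 0.16 (adjusted p = 0.00090) and minus CD14hi moDC -0.64 ± 0.16 (adjusted p = 0.0033). The other populations did not pass the test against each other.

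Some members set 1 population apart from all 3 others. CD103+ cDC was higher than each in Pfkp, Pfkfb3, Eno2 and Eno3 (4 of 31, against 9.47% of all genes) and lower than each in Slc2a1, Pfkfb4, Ldhb, Pgd and Pgm2 (5 of 31, against 9.95%). Ly6Chi moDC was higher than each in Pfkl, Pkm, Ldhb, Slc16a3, Hif1a and H6pd (6 of 31, against 3.39%) and lower than each in Pfkfb3, Eno2 and Eno3 (3 of 31, against 6.52%). Quantile scaling kept all of these and added Pkm and Tkt to the genes lowest in CD103+ cDC. Its backgrounds were 9.36% higher and 9.42% lower for CD103+ cDC, and 3.48% higher and 5.86% lower for Ly6Chi moDC. Of these, Pfkfb3, Eno2, Pfkfb4 and Pgm2 for CD103+ cDC, and Pfkl, Ldhb, Hif1a, Pfkfb3, Eno2 and Eno3 for Ly6Chi moDC, kept all their calls without each single array. Without both CD103+ cDC replicates 1 and 3, CD103+ cDC was still higher than each in Pfkfb3 (5.18% of all genes in that fit) and lower than each in Slc2a1, Pgd and Pgm2 (5.69%). There Pfkp, Eno2 and Eno3 each lost the call against CD14lo cDC, and Pfkfb4 and Ldhb those against CD14lo cDC and CD14hi moDC. No member set CD14hi moDC or CD14lo cDC apart by limma on the deposited scale (with 1 gene, lower in CD14hi moDC, at unadjusted p-values under 0.05), where 1.97% and 1.35% of all genes were higher and 0.595% and 0.686% lower than in each other population.

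**Figure D5:**
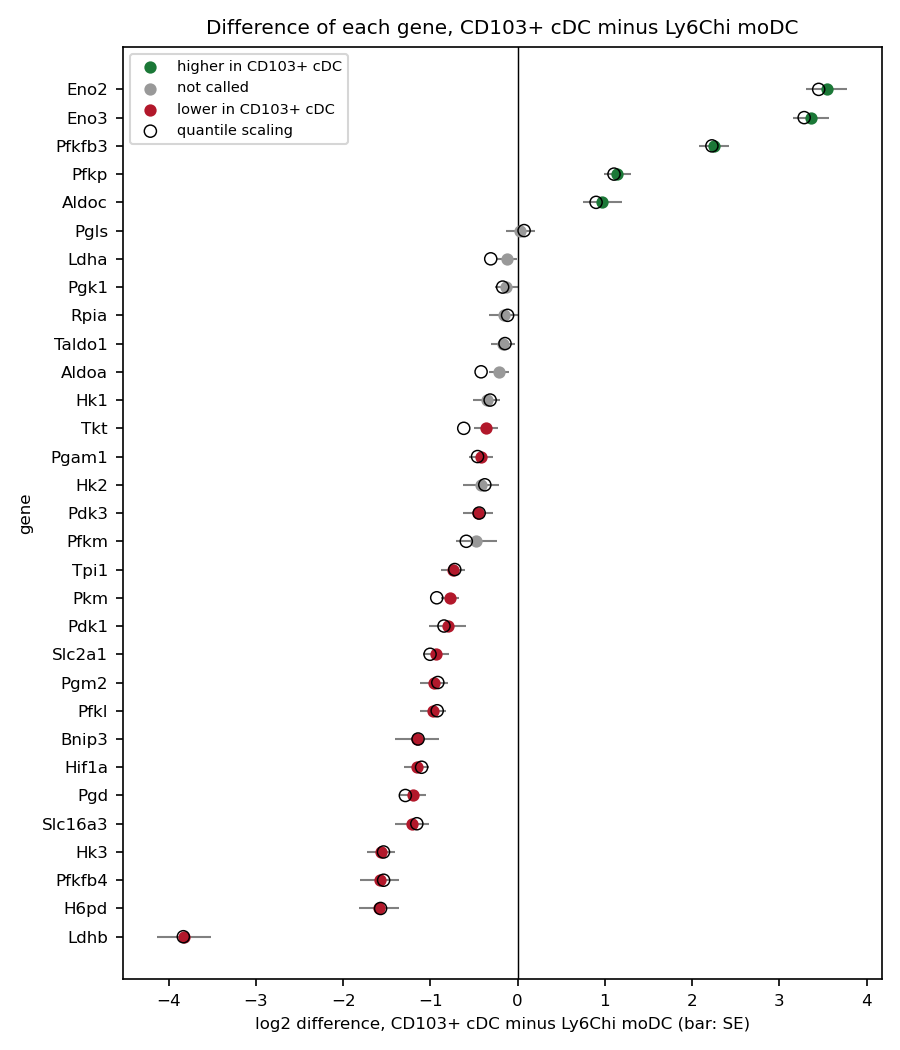
Log2 difference of each tested gene in CD103+ cDC minus Ly6Chi moDC, where filled points are the deposited scale with the SE as bars, coloured by call, and open circles are quantile scaling. Of 31 genes 5 are called higher and 17 lower in CD103+ cDC, from Eno2 at 3.54 to Ldhb at -3.82.

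The promoters of 6 genes that set Ly6Chi moDC apart are printed below. They are 3 of the 6 members higher there than in each other population, and the 3 that were lower. These groups moved in opposite directions, and ACGTG is a form of the core sequence that HIF-1 binds. Sequences are from RefSeq (GRCm38.p6), 250 bases before the first listed start on the strand of the gene, written 5′ to 3′. Capitals mark ACGTG or, for the other strand, CACGT, and an overlap of both gives the palindrome CACGTG, which basic helix-loop-helix factors such as MYC also bind. The windows are chr6:142507958-142508207 (minus strand) for Ldhb, chr12:73907617-73907866 (plus) for Hif1a, chr11:120948817-120949066 (plus) for Slc16a3, chr6:124769674-124769923 (minus) for Eno2, chr11:70656926-70657175 (plus) for Eno3 and chr2:11553930-11554179 (minus) for Pfkfb3, which has 2 listed starts.
Ldhb: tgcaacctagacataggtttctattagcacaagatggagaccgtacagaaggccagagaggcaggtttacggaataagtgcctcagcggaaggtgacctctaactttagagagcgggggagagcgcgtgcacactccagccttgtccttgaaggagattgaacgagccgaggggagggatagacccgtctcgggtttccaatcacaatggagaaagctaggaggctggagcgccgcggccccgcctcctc
Hif1a: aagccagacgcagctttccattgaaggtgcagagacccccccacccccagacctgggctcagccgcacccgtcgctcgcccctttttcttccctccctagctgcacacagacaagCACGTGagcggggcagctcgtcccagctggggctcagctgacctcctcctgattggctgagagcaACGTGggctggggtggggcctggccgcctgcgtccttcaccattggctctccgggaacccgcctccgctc
Slc16a3: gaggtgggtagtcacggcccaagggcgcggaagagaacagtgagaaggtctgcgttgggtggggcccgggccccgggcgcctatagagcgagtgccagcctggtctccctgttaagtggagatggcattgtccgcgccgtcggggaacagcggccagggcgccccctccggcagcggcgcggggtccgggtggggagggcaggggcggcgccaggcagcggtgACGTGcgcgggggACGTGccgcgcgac
Eno2: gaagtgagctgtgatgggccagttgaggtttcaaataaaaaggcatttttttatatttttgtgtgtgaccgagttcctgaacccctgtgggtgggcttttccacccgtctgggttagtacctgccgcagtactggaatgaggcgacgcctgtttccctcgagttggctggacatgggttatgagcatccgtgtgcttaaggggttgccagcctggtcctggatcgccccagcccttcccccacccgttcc
Eno3: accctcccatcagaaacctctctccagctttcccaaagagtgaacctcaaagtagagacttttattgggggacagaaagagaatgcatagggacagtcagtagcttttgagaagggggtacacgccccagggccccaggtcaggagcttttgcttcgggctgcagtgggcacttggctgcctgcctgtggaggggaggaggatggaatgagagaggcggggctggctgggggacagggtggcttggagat
Pfkfb3: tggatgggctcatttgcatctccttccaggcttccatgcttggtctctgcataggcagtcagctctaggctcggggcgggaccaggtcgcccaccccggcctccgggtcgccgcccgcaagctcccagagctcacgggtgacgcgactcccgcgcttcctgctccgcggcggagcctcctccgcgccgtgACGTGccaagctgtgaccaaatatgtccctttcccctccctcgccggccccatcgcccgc

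Hif1a held 3 matches, at 135, 134 and 70 bases before the start, the first pair forming CACGTG. Slc16a3 held 2, at 27 and 14 bases, and Pfkfb3 held 1 at 60 bases, while the windows of Ldhb, Eno2 and Eno3 held none. The window of the second listed start of Pfkfb3, which is not printed, held 2 matches that form CACGTG. Among the first listed starts of all 37 genes 14 windows held a match (37.8%), 4 of them with CACGTG. Over all listed starts of these genes 19 of 51 windows did (37.3%), 5 of them with CACGTG. Over all listed starts of 27025 genes it was 5444 of 32851 promoters (16.6%), 1978 of them with CACGTG. Of the genes higher in Ly6Chi moDC than in each other population 2 of 6 held a match at the first listed start, and of those lower 1 of 3. Both of these 2, Hif1a and Slc16a3, are among the printed genes. The windows of Pfkl, Pkm and H6pd, which are not printed, held none. The second listed start of Pkm held 1 match. A match is a description of the letters and not evidence of binding. Other forms of the core, such as GCGTG, were not counted. A window without a match can still hold such a form, as those of Ldhb and Eno3 do.

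Ratios of isoenzymes were taken within each array, as differences on the log2(signal + 50.0) scale, and show how unequally the paired genes changed. Pfkp over Pfkl was 4.34-fold higher in CD103+ cDC than in Ly6Chi moDC (a difference of log2 ratios of 2.12), Pfkfb3 over Pfkfb4 14.3-fold higher (3.83) and Aldoc over Aldoa 2.28-fold higher (1.19). Ldhb over Ldha was 13.0-fold lower (-3.71), a size that depends on the pseudocount as Ldhb itself does (-4.97 with 2% and -3.02 with 20% of the trimmed mean). In these 4 ratios the arrays of the pair did not overlap (exact permutation test, two-sided, p = 0.10, the smallest that 3 against 3 arrays can give, adjusted p = 0.15 over 48 ratios and pairs tested). Hk3 over Hk1 was 2.31-fold lower in CD103+ cDC than in Ly6Chi moDC, and 2.84-fold higher in CD14hi moDC than in CD14lo cDC (the same exact p). Eno3 over Eno2 differed by only -0.18 between CD103+ cDC and Ly6Chi moDC (exact p = 0.60).

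Other HIF-1 targets and oxygen sensing genes did not follow a single direction. Of 18 tested, 3 were higher (23.2% of all genes) and 8 lower (24.3%) in CD103+ cDC than in Ly6Chi moDC, with a median log2 difference of -0.41. Vegfa, a growth factor of blood vessels, was 47.2, 51.7 and 32.7 in CD103+ cDC, 2021, 1215 and 1642 in Ly6Chi moDC, 430, 130 and 435 in CD14hi moDC, and 268, 171 and 728 in CD14lo cDC. Its Ly6Chi moDC arrays lay above all others, and CD103+ cDC minus Ly6Chi moDC was -4.14 ± 0.39 (17.6-fold lower, adjusted p = 5.9e-08). Its CD103+ cDC values lay under the medians of their arrays, so this size depends on the pseudocount, and was -4.91 with 2% and -3.56 with 20% of the trimmed mean.

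Adm, the vasodilator peptide gene, ran the other way, at 16014, 6590 and 15544 in CD103+ cDC, 1874, 1072 and 1608 in Ly6Chi moDC, 7557, 6091 and 12199 in CD14hi moDC, and 9316, 6544 and 8247 in CD14lo cDC. Ly6Chi moDC was lowest on every array (CD103+ cDC minus Ly6Chi moDC 2.95 ± 0.29, 7.74-fold, adjusted p = 1.2e-07). Ndrg1, a stress response gene, was 8179, 4250 and 6429 in CD103+ cDC, 2136, 1105 and 2762 in Ly6Chi moDC, 1023, 639 and 1075 in CD14hi moDC, and 2542, 2085 and 2404 in CD14lo cDC. CD103+ cDC was highest on every array (CD103+ cDC minus CD14hi moDC 2.70 ± 0.28, 6.51-fold, adjusted p = 3.0e-07). The lipid droplet gene Hilpda was 5.29-fold lower in CD103+ cDC than in Ly6Chi moDC (-2.40 ± 0.34, adjusted p = 9.1e-06).

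Of 26 further genes of both pathways and their carriers, 18 were tested, and 3 were higher (23.2% of all genes) and 7 lower (24.3%) in CD103+ cDC than in Ly6Chi moDC (median -0.26). Besides Slc2a3 and Slc16a1, Prps2, which makes the ribose phosphate donor of nucleotide synthesis, was lower there (-1.26 ± 0.19, 2.40-fold, adjusted p = 1.7e-05). In Ly6Chi moDC against CD14lo cDC 1 of the 18 was higher (11.2% of all genes) and 2 were lower (14%), and in the cDC against the moDC 4 were higher (20.8%) and 6 lower (20.7%).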

How the data were processed

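Per the submitters' processing notes, the authors made the deposited values with MAS5, which gives 1 intensity per probe set and array on a linear scale. Its version and the detection calls were not given in the sources used here. All 12 arrays had a 2% trimmed mean of 500.0. Of 45101 probe sets, 64 were controls, 34958 carried 1 gene symbol in the platform annotation, 932 several and 9211 none.

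Probe sets stayed in if 3 or more of the 12 arrays had them above the array median, and the kept probe set of highest mean stood for its gene. limma 3.58.1 in R 4.3.3 was fitted to log2(signal + 50.0), the pseudocount being 10% of the trimmed mean, with 1 mean per population, an intensity trend in eBayes and 8 residual degrees of freedom. The 7 comparisons were two-sided, with Benjamini-Hochberg adjustment over 10929 genes. Groups came from the sample labels. Figures were drawn with matplotlib 3.10.9 in Python 3.11.15.

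The members, gene lists and tests were chosen with earlier results of these data known. Values on every array are given for up to 3 called members with the largest difference in each direction of each comparison whose arrays do not overlap, for the 6 brightest members and for enzyme families. Of other pathway lists, up to 2 called genes per list and comparison are eligible. The remaining members are given more briefly, some also with all values.

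On data simulated for CD103+ cDC minus CD14lo cDC (10929 genes, 200 changed), the fit recovered 72% of 2-fold and 98% of 4-fold changes. Of 187 calls there, 17 were false. In the measured data 1466 genes were called higher and 1675 lower in that comparison, so these rates need not hold for them. Alternatives covered scaling (quantile, median centring), pseudocount, filter, probe set choice, variance model, arrays in the fit, a 2-fold requirement, a replicate block and each array left out.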

Additional observations from a re-analysis of the deposited data

How the results depend on the processing

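Of 1037 recomputed values of named members, 972 kept direction and side of the threshold, 65 kept direction but lost the call and 0 reversed, and 14 of these 60 pairs of named member and comparison lost the call at least once. Of all 105 calls of members, 79 held without each single array and 26 were lost without at least 1. The lower count of CD103+ cDC minus CD14lo cDC was 4 with median centring (1342 of all 10929 genes) and 4 without the filter (1528 of 18193). The lower count of CD14hi moDC minus CD14lo cDC was 3 of 28 members with a filter at the 75th percentile (603 of 7061 genes). Without both CD103+ cDC replicates 1 and 3, CD103+ cDC minus CD14lo cDC had 1 higher and 3 lower, and CD103+ cDC minus CD14hi moDC had 6 lower. Requiring a 2-fold difference, which removes smaller calls by construction, left 3 higher and 3 lower in cDC minus moDC, 0 and 0 in CD103+ cDC minus CD14lo cDC (limma, against 4 and 7 without the requirement), 4 lower in CD103+ cDC minus CD14hi moDC, 8 lower in CD103+ cDC minus Ly6Chi moDC, 2 and 2 in CD14hi moDC minus CD14lo cDC, 3 higher in Ly6Chi moDC minus CD14lo cDC and 1 higher in Ly6Chi moDC minus CD14hi moDC. With each array left out in turn, the higher and lower counts ran over 5 to 5 and 14 to 15 in cDC minus moDC, 2 to 4 and 4 to 6 in CD103+ cDC minus CD14lo cDC, 4 to 5 and 8 to 11 in CD103+ cDC minus CD14hi moDC, 5 to 5 and 14 to 18 in CD103+ cDC minus Ly6Chi moDC, 3 to 4 and 2 to 4 in CD14hi moDC minus CD14lo cDC, 9 to 11 and 5 to 5 in Ly6Chi moDC minus CD14lo cDC, and 4 to 8 and 3 to 3 in Ly6Chi moDC minus CD14hi moDC. Over all genes, these refits called 490 to 584 higher in Ly6Chi moDC minus CD14hi moDC, against 745 in the main fit. In CD103+ cDC minus Ly6Chi moDC they called 2346 to 2641 lower, against 2658. For the 2-fold requirement the share of all genes was not counted, so those counts cannot be called few or many. Deviations of arrays of the same replicate number correlated at -0.11 to 0.24 (8 of 18 pairs above 0.1) and of different numbers at -0.27 to 0.23 (4 of 36 above 0.1). Values above 0.1 were thus more frequent among pairs of the same number. The labels do not say if the numbers pair samples, and these correlations do not settle it. The main fit left pairing out. A replicate block gave 5 and 17 in CD103+ cDC minus Ly6Chi moDC, moved no count by over 1.5 times, and lost the calls of Pgd in CD103+ cDC minus CD14lo cDC (adjusted p = 0.056) and Ldha in Ly6Chi moDC minus CD14hi moDC (adjusted p = 0.058) among named members. Apart from these settings the cause of a lost call was not tested, and dim signals limit Ldhb, Pfkm, Vegfa and Pygl.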

Other observations

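Neighbouring pathways were read from lists of glycogen and hexose entry, pyruvate entry into mitochondria, and NADPH sources. Pygl, the phosphorylase that releases glucose units from glycogen, was 74.8, 72.8 and 62.8 in CD103+ cDC, 1220, 1112 and 1291 in Ly6Chi moDC, 225, 210 and 319 in CD14hi moDC, and 509, 832 and 542 in CD14lo cDC. Its 4 ranges did not overlap. CD103+ cDC minus Ly6Chi moDC was -3.39 ± 0.20 on the log2 scale (SE; 10.5-fold lower, limma adjusted p = 1.0e-10), and Ly6Chi moDC was 4.21-fold above CD14hi moDC (adjusted p = 4.9e-07). Ugp2, which makes UDP-glucose for glycogen synthesis, was also higher in Ly6Chi moDC than in CD14hi moDC (0.71 ± 0.14, 1.64-fold, adjusted p = 0.0015). The CD103+ cDC values of Pygl lay under the medians of their arrays, and the difference from Ly6Chi moDC was -3.93 with a pseudocount of 2% and -2.94 with 20% of the trimmed mean. Of the 7 tested genes of this list 0 were higher and 2 lower in CD103+ cDC than in Ly6Chi moDC, where 23.2% of all genes were higher and 24.3% lower.

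Of 9 tested genes for pyruvate entry, 2 were lower in CD103+ cDC than in Ly6Chi moDC (24.3% of all genes), both encoding parts of pyruvate dehydrogenase. Pdha1 was 585, 390 and 584 in CD103+ cDC, 1189, 1098 and 1382 in Ly6Chi moDC, 929, 991 and 924 in CD14hi moDC, and 945, 1269 and 1070 in CD14lo cDC, so CD103+ cDC was lowest on every array (CD103+ cDC minus Ly6Chi moDC -1.17 ± 0.17, 2.26-fold lower, limma adjusted p = 1.7e-05). Dlat was 1.89-fold lower in the same comparison (adjusted p = 0.00033). Of 6 tested NADPH genes 1 was higher (23.2% of all genes) and 5 were lower (24.3%) in CD103+ cDC than in Ly6Chi moDC. The higher one was Me2, mitochondrial malic enzyme, at 1597, 1242 and 1305 in CD103+ cDC, 783, 731 and 850 in Ly6Chi moDC, 777, 745 and 906 in CD14hi moDC, and 1434, 1414 and 1272 in CD14lo cDC. All its cDC arrays lay above its moDC arrays (cDC minus moDC 0.75 ± 0.11, 1.68-fold, adjusted p = 1.3e-05). The largest of the lower ones was Idh2, mitochondrial isocitrate dehydrogenase (-1.06 ± 0.24, 2.09-fold lower, adjusted p = 0.0015), whose call was lost without both CD103+ cDC replicates 1 and 3 (-0.60, adjusted p = 0.11).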
